A study of Mus musculus with 9 samples.

Results

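The genes described here carry the signal of the insulin receptor through phosphoinositide 3-kinase (PI3K) and the kinase AKT. They are 33 genes, chosen by name: the receptor, its substrates and adaptors, PI3K subunits, kinases and phosphatases of the AKT step, FOXO and GSK3 proteins, and regulators of vesicles that carry the glucose transporter GLUT4. All 33 were found once by gene symbol among the 54532 genes of the deposited tables, and all 33 were tested in each comparison. RNA was measured in 3T3-L1, a mouse fibroblast line that forms adipocytes in hormonal medium. Undifferentiated cells were kept confluent for 3 days without the hormonal medium. Differentiated cells were then given a medium that held insulin at 10 μg/mL, rosiglitazone and dexamethasone at 1 μM each, and the phosphodiesterase inhibitor 3-isobutyl-1-methylxanthine (IBMX) at 0.5 mM. Lysfree cells received the same 4 agents in medium that lacked lysine. There were n = 3 libraries in each group, 9 in all, and insulin itself was therefore present in the medium of both treated groups and in none of the Undifferentiated libraries. The authors describe bovine calf serum for cells before treatment, and fetal bovine serum in another base medium for the treatment. Comparisons with Undifferentiated thus also differ in serum, base medium and time in culture, which cannot be told apart from the 4 agents. All groups are a single line, and the labels do not say whether the libraries of a group came from separate cultures. The p values thus rest on a spread between libraries that may be technical, and the tests of single genes pool that spread over genes.

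Insulin binding makes its receptor phosphorylate itself and the IRS proteins, which recruit PI3K to the membrane. PI3K makes the lipid PIP3, PDPK1 and AKT assemble on it, and active AKT phosphorylates FOXO factors, GSK3 kinases and TBC1D4. Phosphorylated FOXO leaves the nucleus, phosphorylated GSK3 is less active, and phosphorylated TBC1D4 lets GLUT4 vesicles move to the surface. In fat this route drives glucose uptake and restrains lipolysis. Most of it is regulated on the protein, and the libraries measure only RNA.

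The comparisons asked how RNA of the route differed between cells in the hormonal medium and cells without it, and whether the medium without lysine gave other levels. In Differentiated vs Undifferentiated, Irs2, Sh2b2 and Tbc1d4 rose by over 4-fold, Insr, Cbl, Pik3cb and Pdpk1 by over 2-fold, and Grb14, Pik3cd, Pik3r2, Phlpp1 and Gab1 fell by over 2-fold. In Lysfree, Irs2 rose to an intermediate level, and Insr, Sh2b2, Tbc1d4, Akt1, Akt2, Grb14 and Phlpp1 stood much nearer to Undifferentiated than to Differentiated. The PI3K subunits Pik3cb, Pik3cd, Pik3r1 and Pik3r2, in contrast, stood near to Differentiated in Lysfree, as did Gab1 and Tbc1d1. Cbl was also nearer to Differentiated than to Undifferentiated. Of the other PI3K subunits, Pik3ca in Lysfree lay between the other groups, and Pik3r3 was nearer to Undifferentiated.

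Total counts ranged from 15880144 to 21806693 per library. Levels are in FPKM (fragments scaled by gene length and library total) when genes are set side by side, and changes are log2 fold changes from edgeR ± standard error, with a p adjusted over all genes tested. A gene was called at an adjusted p under 0.05, and "at least 2-fold" adds a fold of 2 or more. Lysfree 1 stood apart from Lysfree 2 and 3, with a chi-square of counts per degree of freedom of 39.6 and 40.7 where Lysfree 2 and 3 gave 2.67 between them, so results that change without it are given with and without it. Undifferentiated 2 stood apart to a lesser degree, at 11.3 and 6.07 from Undifferentiated 1 and 3, which gave 3.60 between them. Adipocyte markers summed to 322 to 405 FPKM in Undifferentiated, 7051 to 7405 in Differentiated and 296 to 412 in Lysfree, with 9, 10 and 9 of the 10 genes at 1 FPKM or more, and Slc2a4 at 0 or 1 counts in each Lysfree library. Fibroblast or preadipocyte markers summed to 3553 to 3873, 708 to 721 and 1324 to 1344 FPKM, with 7 of 8 genes at 1 FPKM or more in every group. Single genes did not all follow these sums. In Lysfree vs Undifferentiated, 2 of the 10 adipocyte markers were higher and 7 lower (median log2 fold change -0.89). Mean Adipoq there went from 57.8 FPKM in Undifferentiated to 4.18 in Lysfree, and mean Cd36 from 16.6 to 72.7. Of the 8 fibroblast or preadipocyte markers, 2 were higher and 6 lower. The leukocyte, endothelial and epithelial lists reached at most 10.7, 0.272 and 1.72 FPKM. These marker sums move with many of the changes below, and their part in them was not tested. In bulk RNA, fewer cells of a type and less RNA per cell cannot be told apart.

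In Differentiated vs Undifferentiated, 15 of the 33 genes were higher, where 23% of all genes tested were higher, and 11 were lower, where 23.2% were lower. At least 2-fold, 7 were higher, beside 10.4% of all genes, and 5 were lower, beside 11.4%. In Lysfree vs Undifferentiated, 14 were higher (18% of all genes) and 6 lower (17.1%), and 1 was higher (5.52%) and 1 lower (8.76%) by at least 2-fold. Just under that line, Cbl, Pik3cb and Gsk3b rose by 1.93- to 1.95-fold, and Pik3r2 and Foxo4 fell by 1.99- and 1.97-fold. In Lysfree vs Differentiated, 12 were higher (19.7%) and 13 lower (18.8%), with 3 higher (8.14%) and 4 lower (10.5%) by at least 2-fold. All genes tested include many with few reads. Among genes whose CPM (counts scaled to library size) averaged 1 or more, which include 32 of the members, 38.6% were higher and 39% lower in Differentiated vs Undifferentiated, against 46.9% and 34.4% of those 32, so the share called was close to that of other expressed genes. In Lysfree vs Undifferentiated 32.2% of these genes were higher and 28.1% lower, against 43.8% and 18.8% of the 32, and in Lysfree vs Differentiated 34.6% and 30.4%, against 37.5% and 40.6%. By at least 2-fold, 14.6% of these genes were higher and 16.5% lower in Differentiated vs Undifferentiated, against 21.9% and 15.6% of the 32. The shares were 8.39% and 12.1% in Lysfree vs Undifferentiated, against 3.12% and 3.12%. They were 12.4% and 14.6% in Lysfree vs Differentiated, against 9.38% and 12.5%. The median log2 fold change of the 33 was 0.09, 0.06 and -0.09 in the 3 comparisons in that order, beside 0.02, -0.02 and -0.06 over all genes tested. Without Lysfree 1, the lower calls in Lysfree vs Undifferentiated went from 6 to 10, the added genes being Insr, Irs1, Pik3ca and Pik3r3 (adjusted p = 0.00136 for Pik3r3).

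**Figure D1:**
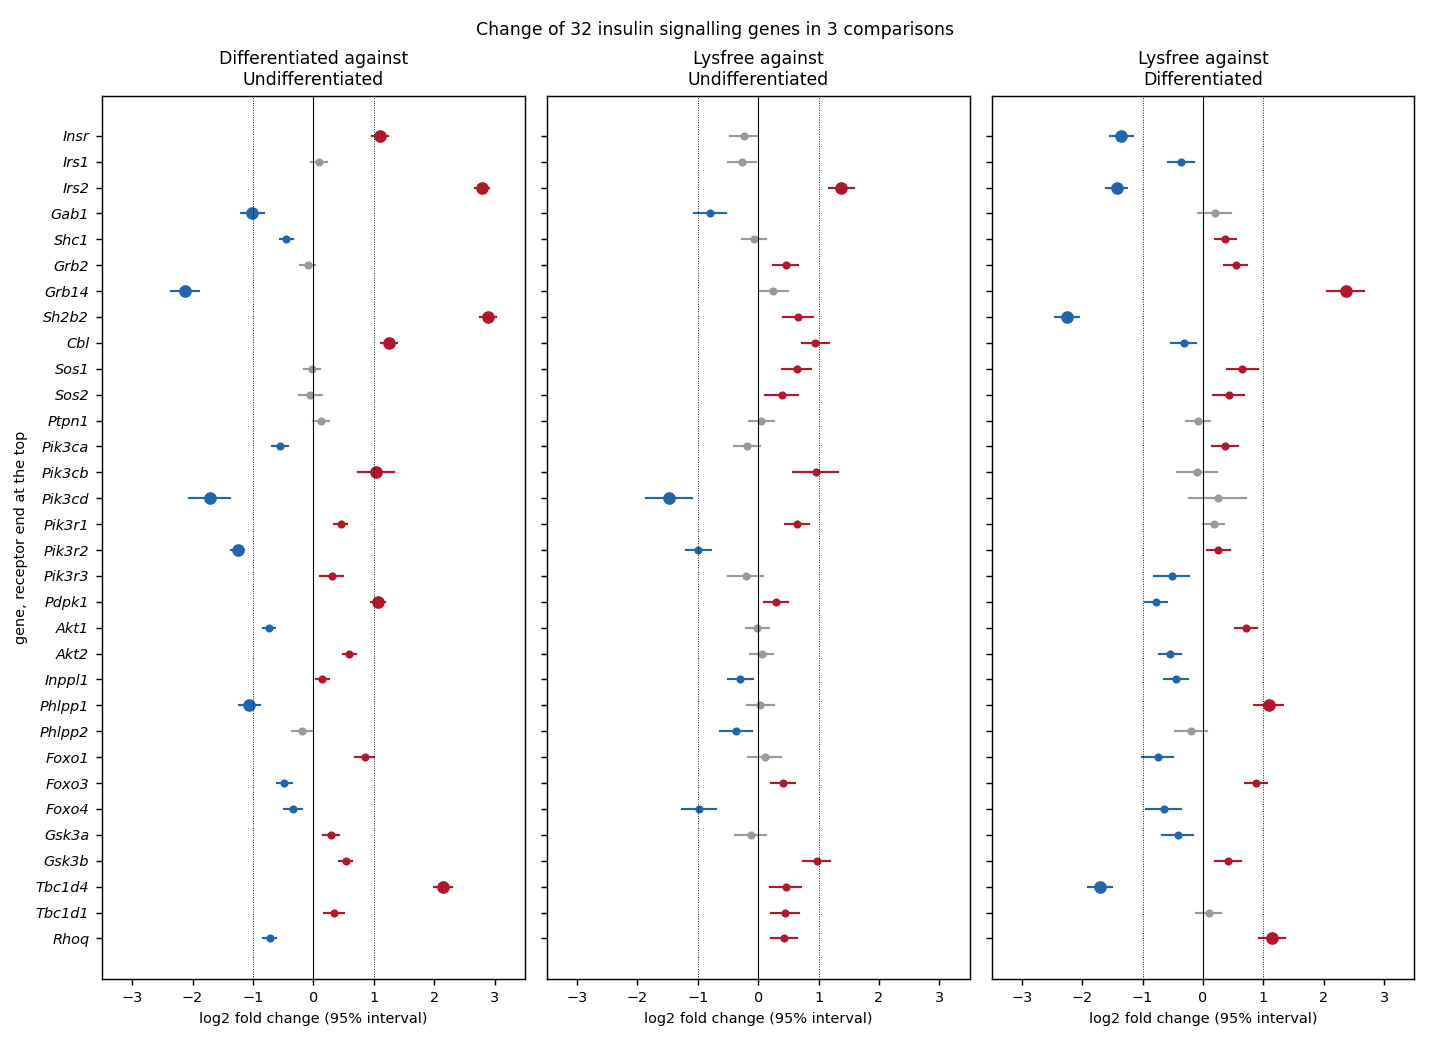
The log2 fold change (x axis) of 32 genes (y axis, receptor at the top) in each of the 3 comparisons, as points with 95% intervals; red is higher, blue lower and grey not called at an adjusted p under 0.05, large points are at least 2-fold, dotted lines mark 2-fold, and Ptprf is left out because it had at most 8 counts in any library. The left panel runs from -2.12 for Grb14 to 2.89 for Sh2b2, and in the right panel both genes lie on the other side of 0, at 2.36 and -2.25.

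Promoter sequence is shown for both IRS genes, a pair of paralogs of which 1 rose several-fold, and for Sh2b2 and Tbc1d4, the other genes that rose over 4-fold. Each is the 250 bases before the RefSeq gene start (GRCm38.p6), 5′ to 3′ on the gene's strand, with motif matches in capitals. For Irs1 it is chr1:82291440-82291689, for Irs2 chr8:11008930-11009179, for Sh2b2 chr5:136244941-136245190 and for Tbc1d4 chr14:101609192-101609441, all on the minus strand. The RefSeq starts are not all those of the gene spans printed below. The Sh2b2 window lies inside its span, and a gap separates the Irs1 and Irs2 windows from theirs.
Irs1: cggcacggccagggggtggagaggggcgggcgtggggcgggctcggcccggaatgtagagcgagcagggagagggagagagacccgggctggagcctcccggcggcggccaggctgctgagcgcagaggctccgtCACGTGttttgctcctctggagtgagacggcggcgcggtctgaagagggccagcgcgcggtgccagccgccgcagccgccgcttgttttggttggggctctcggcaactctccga
Irs2: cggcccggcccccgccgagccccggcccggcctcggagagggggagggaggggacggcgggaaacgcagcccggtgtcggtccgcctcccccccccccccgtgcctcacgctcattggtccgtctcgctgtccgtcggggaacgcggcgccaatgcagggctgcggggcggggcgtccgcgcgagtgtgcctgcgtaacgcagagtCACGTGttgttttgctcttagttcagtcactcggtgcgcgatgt
Sh2b2: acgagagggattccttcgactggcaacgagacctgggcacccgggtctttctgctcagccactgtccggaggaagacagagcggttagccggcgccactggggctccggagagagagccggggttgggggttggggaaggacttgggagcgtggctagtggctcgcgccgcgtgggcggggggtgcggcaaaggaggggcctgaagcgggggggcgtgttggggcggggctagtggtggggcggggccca
Tbc1d4: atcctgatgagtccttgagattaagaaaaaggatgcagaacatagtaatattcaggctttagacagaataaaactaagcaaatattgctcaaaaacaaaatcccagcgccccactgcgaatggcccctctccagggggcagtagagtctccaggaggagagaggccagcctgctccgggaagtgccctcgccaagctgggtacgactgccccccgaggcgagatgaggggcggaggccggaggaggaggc
The motifs searched on both strands were the E-box CACGTG, the FOXO element TGTTTAC, the cAMP response element TGACGTCA, and the glucocorticoid response element and the PPAR DR1 element in their full consensus forms. An E-box lies 115 bases before the Irs1 start and 44 bases before the Irs2 start. Of 31 members with an entry in the RefSeq table, those 2 held an E-box, which 6.02% of all 32851 promoters hold. The FOXO element was found in 1 member, Akt1, starting 161 bases before 1 of its listed starts, and 3.17% of all promoters hold it. No member held the other 3 motifs, present in 1.55%, 0.00913% and 0.0335% of promoters. A match describes letters in a window and no site, and no match says only that these letters are not in it. Insr and Foxo4 had no entry.

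Insr (ENSMUSG00000005534, chr8:3122061-3279617, minus strand, build mm10 for all positions here) encodes the insulin receptor. Its FPKM was 3.53, 3.16 and 3.41 in Undifferentiated 1 to 3, 7.297, 7.69 and 7.17 in Differentiated 1 to 3, and 3.01, 2.69 and 2.62 in Lysfree 1 to 3. Every Differentiated library was above all others, and every Lysfree library was below all Undifferentiated ones. The log2 fold change was 1.11 ± 0.0658, adjusted p = 3.11e-62 in Differentiated vs Undifferentiated. Lysfree was 2.55-fold below Differentiated (-1.35 ± 0.0986, adjusted p = 3.25e-10). Lysfree vs Undifferentiated was not called (-0.23, 95% interval -0.46 to -0.01, adjusted p = 0.119), and it was called without Lysfree 1 (adjusted p = 0.000831).

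The receptor substrates Irs1 and Irs2 dock PI3K to the receptor. Irs2 (ENSMUSG00000038894, chr8:10984681-11008458, minus strand) was at 8.28, 6.87 and 8.02 FPKM in the Undifferentiated libraries, 53.8, 56.6 and 53.6 in the Differentiated and 20.3, 18.7 and 19.2 in the Lysfree libraries, so the 3 groups formed 3 separate levels. Differentiated was 6.95-fold above Undifferentiated (log2 fold change 2.80 ± 0.0594), with an adjusted p that edgeR returned as 0. Lysfree was 2.596-fold above Undifferentiated (1.38 ± 0.106, adjusted p = 1.29e-12). It was also 2.69-fold below Differentiated (-1.43 ± 0.0854, adjusted p = 1.34e-11). Irs1 (ENSMUSG00000055980, chr1:82233101-82291416, minus strand) measured 6.98, 5.704 and 7.76 FPKM in Undifferentiated, 7.68, 7.74 and 6.68 in Differentiated and 4.74, 5.57 and 6.12 in Lysfree, and its Undifferentiated values overlapped those of both treated groups. Neither treated group was called against Undifferentiated for Irs1 (0.09, 95% interval -0.04 to 0.22, adjusted p = 0.291 in Differentiated and -0.27, 95% interval -0.50 to -0.03, adjusted p = 0.0932 in Lysfree). The Lysfree call appeared without Undifferentiated 2, Lysfree 1 or Lysfree 3 (adjusted p = 0.019, 0.0322 and 0.0265), and the Differentiated call without Undifferentiated 3 (adjusted p = 0.035). Irs1 was lower in Lysfree vs Differentiated (-0.36 ± 0.112, adjusted p = 0.0129), a call lost without Differentiated 1 (adjusted p = 0.0613) or Differentiated 2 (adjusted p = 0.0932). Of the 2 genes, only Irs2 changed by at least 2-fold. The promoters of both, shown above, hold the E-box letters that were searched for, and any part of these letters in the changes was not tested.

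**Figure D2:**
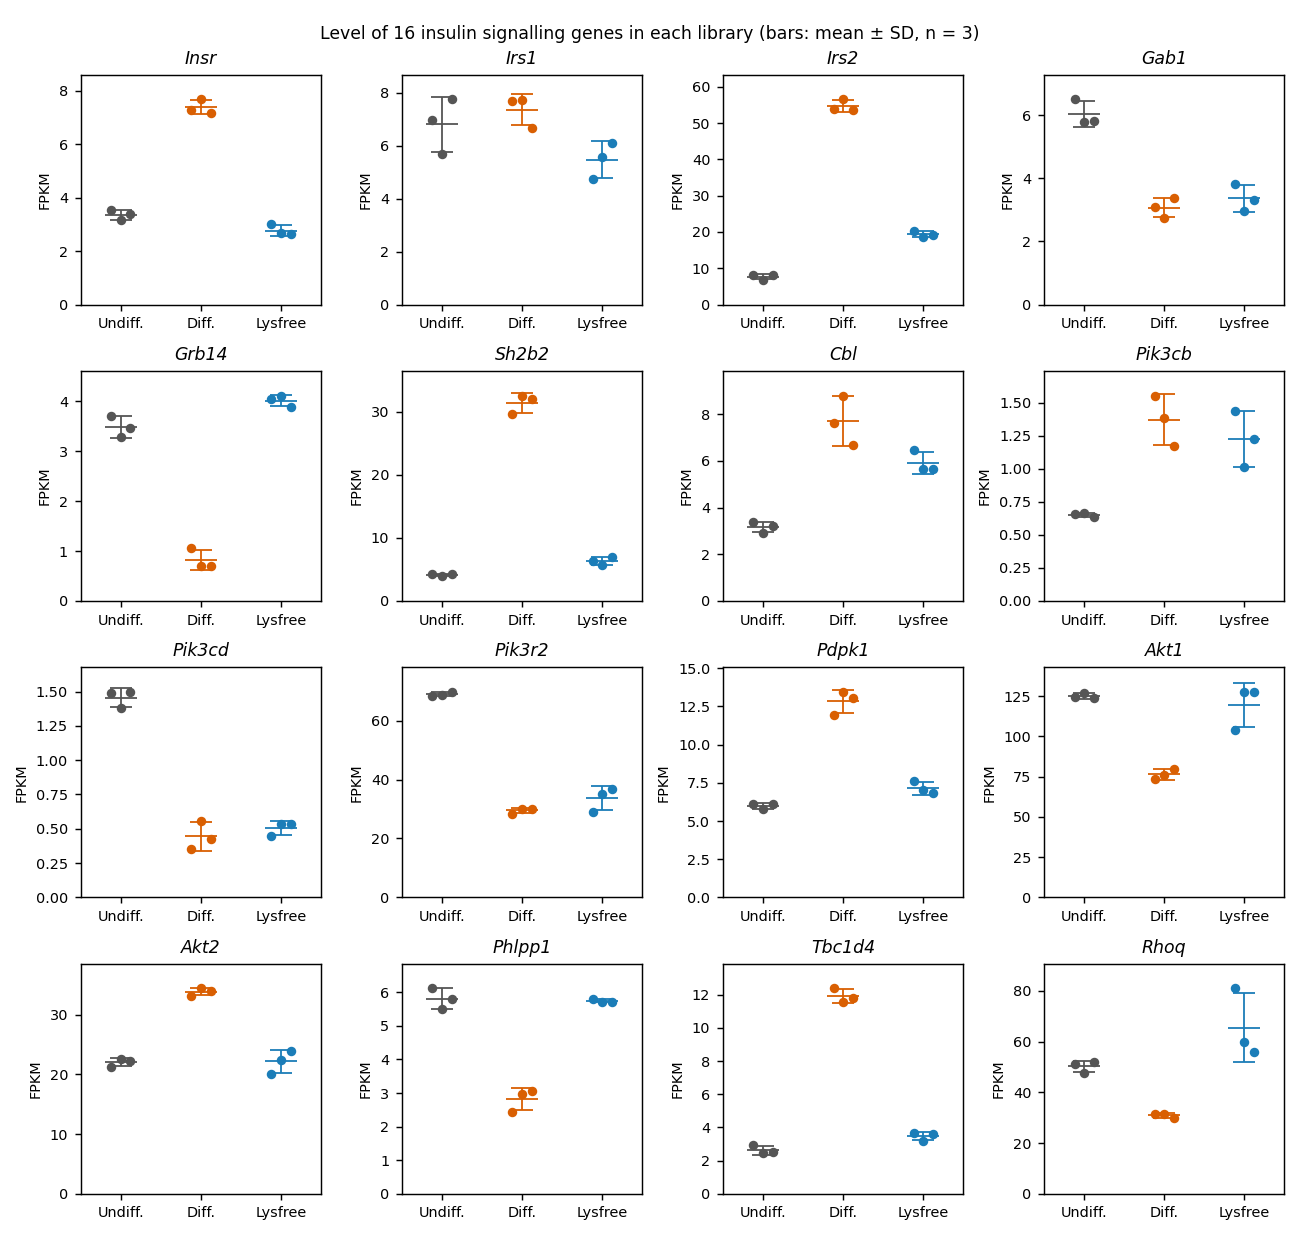
FPKM (y axis, from 0) of 16 genes in each of the 9 libraries (points), by group (x axis), with the group mean and SD (bars, n = 3). Irs2 has 3 separate levels, with group means of 7.72, 54.7 and 19.4 FPKM, while Insr, Sh2b2, Akt1, Akt2 and Tbc1d4 have a Lysfree mean much nearer to the Undifferentiated than to the Differentiated one.

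Of the 8 other adaptors and RAS exchange factors, 2 rose and 3 fell in Differentiated vs Undifferentiated. Sh2b2 (ENSMUSG00000005057, chr5:136218147-136246556, minus strand), also called APS, is an adaptor that binds the activated receptor and recruits CBL. Its 3 Undifferentiated values were 4.297, 3.97 and 4.205 FPKM, the Differentiated ones 29.6, 32.6 and 32.01, and the Lysfree ones 6.26, 5.76 and 6.96. No group overlapped another, and the Differentiated libraries were far above the rest. The log2 fold change was 2.89 ± 0.0681 in Differentiated vs Undifferentiated, 7.41-fold higher, with an adjusted p returned as 0. Lysfree was 1.57-fold above Undifferentiated (0.65 ± 0.126, adjusted p = 6.79e-05). Against Differentiated it was 4.74-fold lower (-2.25 ± 0.101, adjusted p = 1.45e-13). Cbl (ENSMUSG00000034342, chr9:44142976-44234049, minus strand), a ubiquitin ligase that SH2B2 brings to the receptor, stood at 3.38, 2.93 and 3.197 FPKM in Undifferentiated, 7.64, 8.799 and 6.69 in Differentiated and 6.47, 5.66 and 5.65 in Lysfree. It rose in both treated groups, by 1.26 ± 0.068000, adjusted p = 5.27e-75 in Differentiated and by 0.95 ± 0.1103, adjusted p = 1.21e-08 in Lysfree. Its difference between the treated groups (-0.32 ± 0.107, adjusted p = 0.0226) was lost as a call in 7 of 15 alternative settings.

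Grb14 (ENSMUSG00000026888, chr2:64912476-65024987, minus strand) encodes an adaptor that binds the activated receptor and inhibits its kinase. The values were 3.72, 3.28 and 3.47 FPKM in Undifferentiated, 1.05, 0.7099 and 0.698 in Differentiated and 4.05, 4.12 and 3.89 in Lysfree. Only the Differentiated libraries were low, and their counts were 81 to 117. The log2 fold change was -2.12 ± 0.118, adjusted p = 1.82e-71 in Differentiated vs Undifferentiated. Lysfree was 5.14-fold above Differentiated (2.36 ± 0.157, adjusted p = 7.54e-11). Against Undifferentiated it was not called (0.25, 95% interval 0.0061 to 0.49, adjusted p = 0.128), although its 3 values lay above all Undifferentiated ones. Gab1 (ENSMUSG00000031714, chr8:80764438-80880519, minus strand), a docking protein that binds PI3K, was at 6.502, 5.79 and 5.82 FPKM in Undifferentiated, 3.09, 2.75 and 3.36 in Differentiated and 3.81, 2.95 and 3.32 in Lysfree. Both treated groups were below all Undifferentiated libraries and overlapped each other. Gab1 fell by 2.01-fold in Differentiated (-1.01 ± 0.0948, adjusted p = 1.45e-25). It fell by 1.74-fold in Lysfree (-0.80 ± 0.134, adjusted p = 8.05e-06).

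The adaptors Shc1 and Grb2 and the exchange factors Sos1 and Sos2 lead from the receptor to RAS. Shc1 had means of 49.5 ± 2.61, 36.96 ± 0.841 and 45.7 ± 4.41 FPKM (SD) in Undifferentiated, Differentiated and Lysfree, and was lower in Differentiated vs Undifferentiated (-0.45 ± 0.0534, adjusted p = 2.62e-16) and not called in Lysfree vs Undifferentiated (-0.07, 95% interval -0.26 to 0.13, adjusted p = 0.629). Grb2 was at 27.1 ± 0.695, 25.8 ± 0.704 and 35.9 ± 3.97 FPKM and was higher in Lysfree than in either other group (0.45 ± 0.106, adjusted p = 7.07e-04 against Undifferentiated). Sos1 was at 6.39 ± 0.475, 6.402 ± 0.806 and 9.62 ± 2.13 FPKM and rose in Lysfree vs Undifferentiated (0.64 ± 0.121, adjusted p = 5.62e-05), with Lysfree 1 at 12.1 FPKM above the other Lysfree libraries at 8.36 and 8.42. Sos2 was called higher in Lysfree vs Undifferentiated (0.39 ± 0.138, adjusted p = 0.0257), a call lost in 8 of 15 alternatives, among them without Lysfree 1 (0.21, adjusted p = 0.0835), and in Lysfree vs Differentiated (0.43 ± 0.131, adjusted p = 0.0119), a call lost in 4 of 15. Grb2, Sos1 and Sos2 were not called in Differentiated vs Undifferentiated, where their log2 fold changes were -0.10, -0.02 and -0.05.

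The tyrosine phosphatases that act on the receptor gave no call. Ptpn1, which encodes PTP1B, was at 10.2 ± 0.602, 11.4 ± 0.617 and 10.3 ± 0.616 FPKM, with a log2 fold change in Differentiated vs Undifferentiated of 0.13, 95% interval -0.0042 to 0.27, adjusted p = 0.114. Ptprf, which encodes LAR, had 0 to 8 counts in Undifferentiated and at most 2 in any treated library. At 3 counts or fewer in 8 of the 9 libraries it was at the limit of this depth, and no fold is given.

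The 3 PI3K catalytic subunits changed in different directions. Pik3ca, the p110α subunit found in most tissues, was the most abundant at 7.53 ± 0.214, 5.24 ± 0.231 and 6.45 ± 0.908 FPKM. It fell in Differentiated vs Undifferentiated (-0.55 ± 0.0697, adjusted p = 1.54e-14) and was not called in Lysfree vs Undifferentiated (-0.18, 95% interval -0.40 to 0.04, adjusted p = 0.240000), except without Lysfree 1 (adjusted p = 9.36e-05). Pik3cb (ENSMUSG00000032462, chr9:99036654-99140621, minus strand), p110β, was at 0.659, 0.666 and 0.634 FPKM in Undifferentiated, 1.55, 1.39 and 1.17 in Differentiated and 1.44, 1.01 and 1.23 in Lysfree. Both treated groups were above all Undifferentiated libraries and overlapped each other. The rise was 2.06-fold in Differentiated (1.04 ± 0.154, adjusted p = 6.11e-11). It was 1.93-fold in Lysfree (0.95 ± 0.189, adjusted p = 1.04e-04). Pik3cd (ENSMUSG00000039936, chr4:149649168-149702571, minus strand), p110δ, best known from leukocytes, was at 1.49, 1.38 and 1.497 FPKM in Undifferentiated, 0.351, 0.558 and 0.425 in Differentiated and 0.445, 0.536 and 0.535 in Lysfree. It was low in every treated library, with counts of 34 to 65 there and 150 to 199 in Undifferentiated. Pik3cd fell by 3.29-fold in Differentiated (-1.72 ± 0.175, adjusted p = 5.32e-22). It fell by 2.78-fold in Lysfree (-1.47 ± 0.196, adjusted p = 1.64e-07). The treated groups were not called apart for Pik3cb (-0.10, 95% interval -0.43 to 0.23, adjusted p = 0.668) or for Pik3cd (0.24, 95% interval -0.23 to 0.71, adjusted p = 0.484), and these intervals leave room for moderate differences.

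The regulatory subunits hold p110 inactive and bring it to the IRS proteins. Pik3r2 (ENSMUSG00000031834, chr8:70768176-70776713, minus strand), p85β, was at 68.5, 68.8 and 69.7 FPKM in Undifferentiated, 28.5, 29.98 and 30.03 in Differentiated and 28.996, 35.1 and 36.7 in Lysfree. Every treated library was at under 37 FPKM and every Undifferentiated one at over 68. The fall was 2.38-fold in Differentiated (-1.25 ± 0.0553, adjusted p = 4.57e-112). It was 1.99-fold in Lysfree (-0.99 ± 0.103, adjusted p = 1.19e-09). The slight difference between the treated groups (0.25 ± 0.09898, adjusted p = 0.0489) was lost as a call in 12 of 15 alternatives and with the replicate block (adjusted p = 0.0707). Pik3r1, p85α, had means of 18.1 ± 1.02, 25.2 ± 1.36 and 27.2 ± 2.396 FPKM and rose in Differentiated (0.46 ± 0.053995, adjusted p = 1.82e-16) and in Lysfree (0.64 ± 0.0988, adjusted p = 2.28e-06). Pik3r3, p55γ, was at 3.596 ± 0.030999, 4.53 ± 0.498 and 3.03 ± 0.659 FPKM, and was higher in Differentiated than in Undifferentiated (0.30 ± 0.0955, adjusted p = 0.00403), a call lost without Differentiated 3 (adjusted p = 0.0863) and with all 9 libraries in a single fit (adjusted p = 0.0569). The fall of Pik3r2 and the rise of Pik3r1 brought their levels, 69.0 and 18.1 FPKM in Undifferentiated, to 29.5 and 25.2 FPKM in Differentiated.

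Of the kinases of the AKT step, Pdpk1 (ENSMUSG00000024122, chr17:24073680-24150924, minus strand) phosphorylates AKT at the membrane. It measured 6.09, 5.78 and 6.12 FPKM in Undifferentiated, 11.97, 13.4 and 13.1 in Differentiated and 7.62, 7.01 and 6.81 in Lysfree. The groups did not overlap, and Lysfree lay just above Undifferentiated. Pdpk1 rose by 2.102-fold in Differentiated (1.07 ± 0.0611, adjusted p = 1.39e-67). Its smaller rise in Lysfree (0.30 ± 0.103, adjusted p = 0.0209) was lost as a call in 4 of 15 alternatives, among them without any 1 of the Undifferentiated libraries (adjusted p = 0.0641, 0.0887 and 0.0728). Akt1 (ENSMUSG00000001729, chr12:112653821-112674884, minus strand), the broadly expressed AKT, was at 124, 127 and 124 FPKM in Undifferentiated, 73.2, 76.1 and 79.9 in Differentiated and 104, 128 and 127 in Lysfree. Differentiated libraries were below all others. Akt1 fell in Differentiated vs Undifferentiated (-0.74 ± 0.05096, adjusted p = 2.06e-46). It was 1.64-fold higher in Lysfree than in Differentiated (0.71 ± 0.0932, adjusted p = 1.90e-06). Akt2 (ENSMUSG00000004056, chr7:27591552-27640826, plus strand), the AKT best known for insulin-driven glucose uptake in fat and muscle, was at 21.3, 22.5 and 22.3 FPKM in Undifferentiated, 33.2, 34.4 and 33.96 in Differentiated and 20.1, 22.5 and 23.98 in Lysfree. Here the Differentiated libraries were above all others. Akt2 rose in Differentiated vs Undifferentiated (0.59 ± 0.0546, adjusted p = 1.09e-26). It was lower in Lysfree than in Differentiated (-0.55 ± 0.0905, adjusted p = 4.02e-05). In Lysfree vs Undifferentiated neither Akt1 (-0.02, 95% interval -0.21 to 0.18, adjusted p = 0.922) nor Akt2 (0.06, 95% interval -0.14 to 0.25, adjusted p = 0.682) was called.

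**Figure D3:**
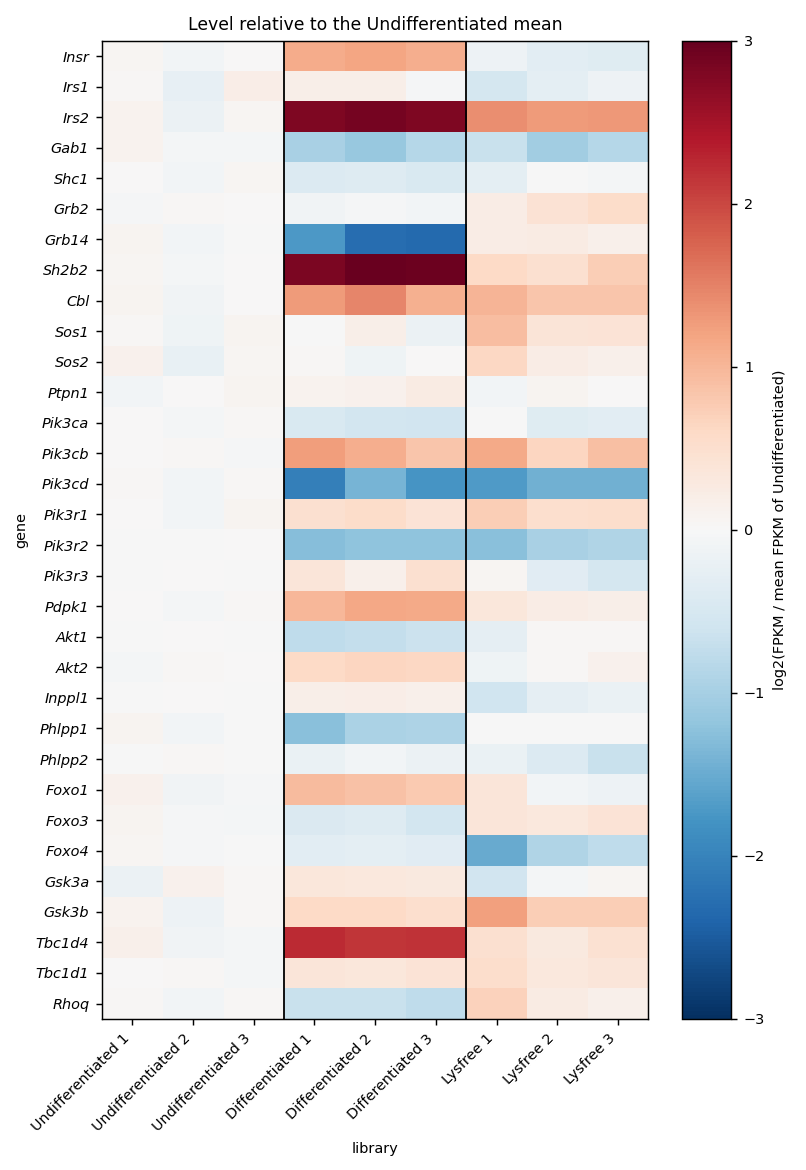
The log2 of FPKM over the mean FPKM of the Undifferentiated libraries (colour, red higher and blue lower) for 32 genes (rows, receptor at the top) in the 9 libraries (columns). Irs2, Sh2b2 and Tbc1d4 are dark red in Differentiated and lighter in Lysfree, Pik3cd and Pik3r2 are blue in all 6 treated libraries, and Lysfree 1 is bluer than the other Lysfree libraries at Foxo4 and redder at Gsk3b and Rhoq.

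The phosphatases oppose the AKT step, Inppl1 (SHIP2) by removing a phosphate from PIP3 and Phlpp1 and Phlpp2 by acting on AKT itself. Phlpp1 (ENSMUSG00000044340, chr1:106171752-106394250, plus strand) was at 6.12, 5.496 and 5.799 FPKM in Undifferentiated, 2.44, 2.98 and 3.05 in Differentiated and 5.798, 5.72 and 5.72 in Lysfree. The Differentiated libraries alone were low. Phlpp1 fell by 2.09-fold in Differentiated (-1.06 ± 0.08798, adjusted p = 1.20e-32). Lysfree was 2.13-fold above Differentiated (1.09 ± 0.1199, adjusted p = 1.72e-07). It was not called against Undifferentiated (0.03, 95% interval -0.19 to 0.26, adjusted p = 0.845). Inppl1 had means of 32.9 ± 0.451, 37.1 ± 0.4601 and 25.9 ± 3.73 FPKM, and was slightly higher in Differentiated and lower in Lysfree than in Undifferentiated, calls lost in 4 and 6 of 15 alternatives. Phlpp2 was at 2.97 ± 0.0645, 2.67 ± 0.108 and 2.23 ± 0.361 FPKM and was called in Lysfree vs Undifferentiated (-0.37 ± 0.137, adjusted p = 0.0337), a call lost in 8 of 15 alternatives. It was not called in Differentiated vs Undifferentiated (-0.18, 95% interval -0.36 to 7.4e-05, adjusted p = 0.101), although 2 of 15 alternatives called it there. Nor was it called in Lysfree vs Differentiated (-0.20, 95% interval -0.46 to 0.06, adjusted p = 0.282), except without Lysfree 1, where the log2 fold change was -0.34 (adjusted p = 0.00171).

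The 3 FOXO factors are transcription factors that AKT keeps out of the nucleus. Foxo1, the member best known in adipocyte differentiation, had means of 3.21 ± 0.281, 5.89 ± 0.346 and 3.35 ± 0.692 FPKM. It rose in Differentiated (0.85 ± 0.0793, adjusted p = 7.72e-26) and was not called in Lysfree vs Undifferentiated (0.11, 95% interval -0.16 to 0.37, adjusted p = 0.564). Foxo3 went from 13.5 ± 0.704 FPKM down to 9.84 ± 0.551 in Differentiated (-0.48 ± 0.0624, adjusted p = 5.25e-14) and up to 17.3 ± 0.607 in Lysfree (0.41 ± 0.0992, adjusted p = 0.001100). Foxo4 was at 13.7 ± 0.423 FPKM in Undifferentiated, 10.997 ± 0.135 in Differentiated and 6.69 ± 1.69 in Lysfree, and fell in both treated groups, with log2 fold changes of -0.34 ± 0.0763, adjusted p = 2.62e-05 and -0.98 ± 0.142, adjusted p = 7.46e-07. In Lysfree 1 it stood at 4.78 FPKM, 0.626 times the mean of the other Lysfree libraries, which at 7.27 and 8.01 FPKM were still below every other library.

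The GSK3 kinases inhibit glycogen synthase until AKT phosphorylates them. Gsk3b had means of 17.4 ± 1.62, 25.7 ± 1.001 and 32.97 ± 6.84 FPKM and was the only member called higher in all 3 comparisons (0.97 ± 0.114, adjusted p = 1.68e-08 in Lysfree vs Undifferentiated). Its difference between Lysfree and Differentiated (0.42 ± 0.109, adjusted p = 0.003600) was lost as a call in 3 of 15 alternatives, those on log2 FPKM, and Lysfree 1 stood at 40.9 FPKM beside 28.8 and 29.2 in the other Lysfree libraries. Gsk3a was at 19.5 ± 2.16, 24.3 ± 0.426 and 17.3 ± 3.75 FPKM, higher in Differentiated vs Undifferentiated (0.29 ± 0.0676, adjusted p = 6.08e-05) and not called in Lysfree vs Undifferentiated (-0.12, 95% interval -0.38 to 0.13, adjusted p = 0.529).

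Of the regulators of GLUT4 vesicles, Tbc1d4 (ENSMUSG00000033083, chr14:101442360-101609191, minus strand), also called AS160, restrains the vesicles until AKT phosphorylates it. Its level was 2.95, 2.43 and 2.52 FPKM in Undifferentiated, 12.4, 11.6 and 11.8 in Differentiated and 3.65, 3.21 and 3.61 in Lysfree. The groups did not overlap, and Lysfree lay slightly above Undifferentiated. Tbc1d4 rose by 4.44-fold in Differentiated (2.15 ± 0.0752, adjusted p = 2.00e-177). Its rise in Lysfree was 1.37-fold (0.45 ± 0.132, adjusted p = 0.006100), a call lost in 2 of 15 alternatives. Lysfree was 3.27-fold below Differentiated (-1.71 ± 0.102, adjusted p = 1.36e-11). Its relative Tbc1d1, the main form in muscle, was at 3.94 ± 0.124, 5.105 ± 0.0887 and 5.22 ± 0.447 FPKM and rose in both treated groups (0.34 and 0.45 on the log2 scale). Rhoq (ENSMUSG00000024143, chr17:86963082-87000069, plus strand), which encodes the small GTPase TC10 of the CBL branch to GLUT4, was at 51.3, 47.6 and 51.9 FPKM in Undifferentiated, 31.6, 31.6 and 29.9 in Differentiated and 81.02, 59.7 and 56.01 in Lysfree. Differentiated was below and Lysfree above all Undifferentiated libraries, and Lysfree 1 was the highest of all. Rhoq fell in Differentiated (-0.72 ± 0.0557, adjusted p = 1.29e-37). Lysfree was 2.21-fold above Differentiated (1.14 ± 0.112, adjusted p = 2.94e-08), and without Lysfree 1 the log2 fold change was 0.95 (adjusted p = 8.29e-95), under 2-fold, which left 2 of the 3 members higher by at least 2-fold in that comparison.

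Because paralogs with different roles moved apart, the share of each in the summed FPKM of its family was computed in each library. The share of the first-named gene was tested by an exact permutation test over the 9 libraries, 3 groups of 3, which asks whether the 3 groups differ at all and not which pair does. The smallest p it can give is 0.00357, and the p values are adjusted over 9 families. Irs1 made up 46.8% ± 2.12 of IRS RNA in Undifferentiated, 11.9% ± 0.723 in Differentiated and 22.0% ± 2.76 in Lysfree (SD, n = 3, exact permutation test, adjusted p = 0.0161). Akt1 made up 85.0% ± 0.344, 69.3% ± 0.776 and 84.3% ± 0.644 of AKT RNA (exact permutation test, adjusted p = 0.0257), which leaves Akt2 with 15.0%, 30.7% and 15.7%. Tbc1d4 made up 39.98% ± 2.48, 70.01% ± 0.774 and 40.1% ± 1.45 of the RabGAP pair (exact permutation test, adjusted p = 0.0402). In these 3 families the Lysfree share lay at or between the other groups, and for AKT and the RabGAP pair it differed from Undifferentiated by less than 1 percentage point.

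Pik3r1 made up 19.9% ± 0.816 of regulatory subunit RNA in Undifferentiated, 42.5% ± 1.73 in Differentiated and 42.7% ± 4.44 in Lysfree (exact permutation test, adjusted p = 0.0402). Pik3ca kept 78.1%, 74.3% and 78.8% of catalytic subunit RNA (exact permutation test, adjusted p = 0.0257, 0.0723 without Lysfree 1 and 0.0522 without Lysfree 2), and Pik3cb held 6.78%, 19.4% and 14.9% and Pik3cd 15.1%, 6.32% and 6.30%. Foxo1 had 10.6%, 22.0% and 12.3% of FOXO RNA (exact permutation test, adjusted p = 0.0268, and 0.0413 without Lysfree 1), and Foxo3, whose share was not tested, had 44.4%, 36.8% and 63.4%. The Foxo1 share was 15.7% in Lysfree 1, beside 11.2% and 10.0% in Lysfree 2 and 3. Phlpp1 had 66.1%, 51.3% and 72.1% of PHLPP RNA (exact permutation test, adjusted p = 0.0161). Gsk3a had 52.8%, 48.6% and 34.8% of GSK3 RNA (exact permutation test, adjusted p = 0.0257, 0.0321 without Lysfree 1 and 0.0522 without Undifferentiated 2). Its share was 24.3% in Lysfree 1, beside 39.3% and 40.9% in Lysfree 2 and 3. Sos1 kept 70.2%, 70.3% and 73.5% of SOS RNA (exact permutation test, adjusted p = 0.232, and 0.0257 without Differentiated 2).

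**Figure D4:**
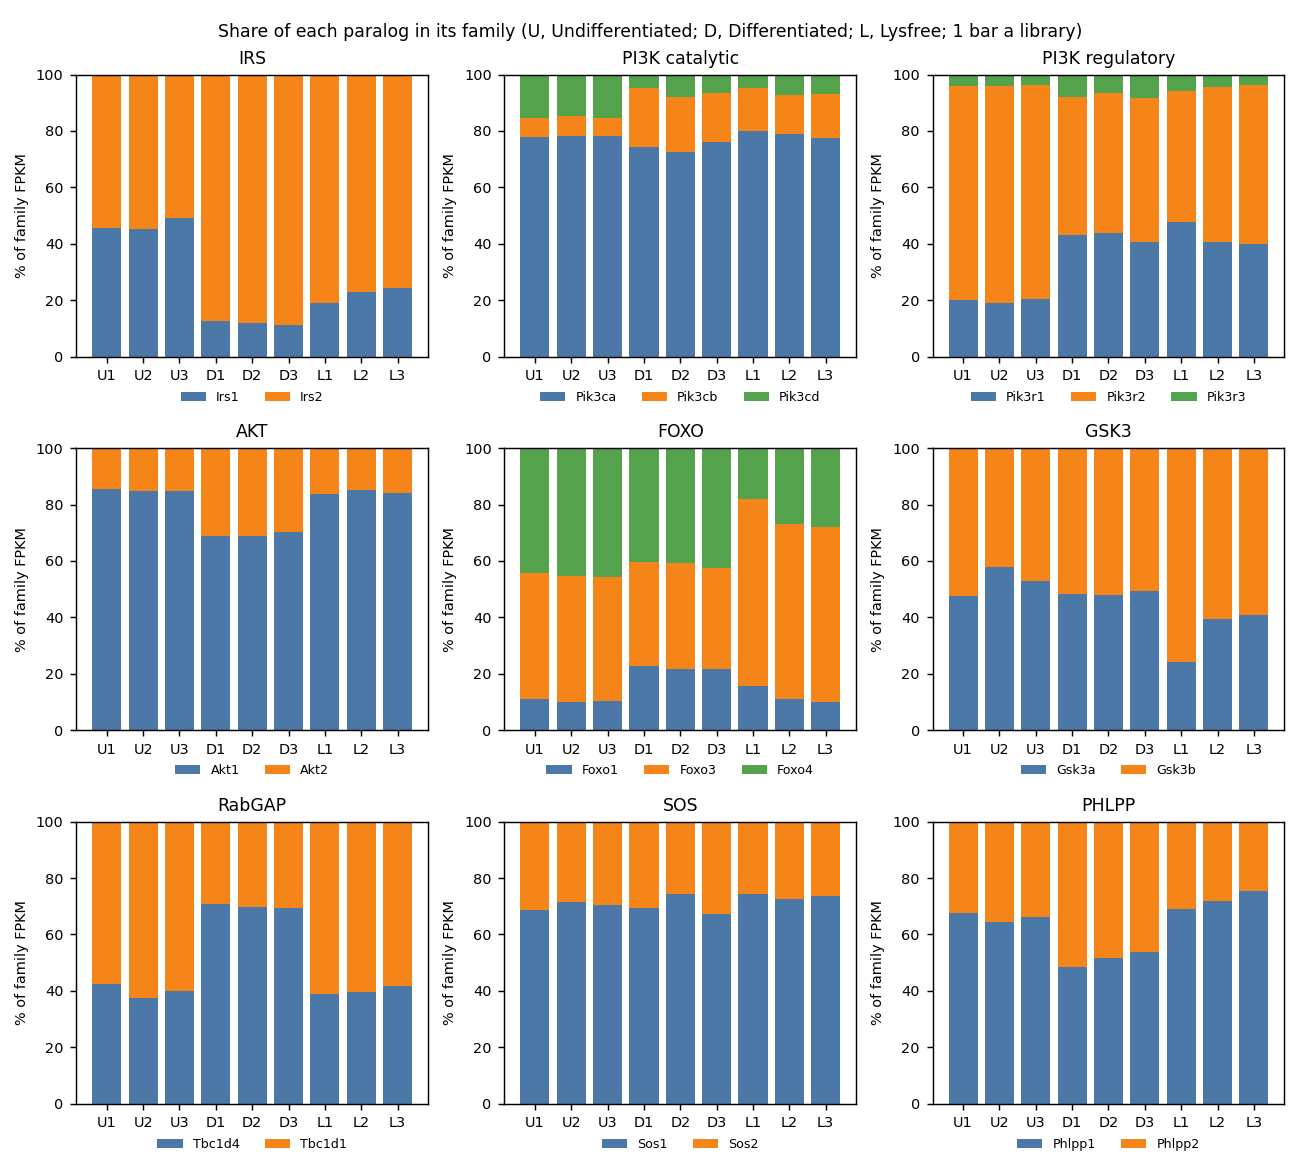
Share of each paralog (colour) in the summed FPKM of its family (y axis, percent) in each library (x axis; U, Undifferentiated; D, Differentiated; L, Lysfree; numbers are replicates), 1 panel for each of 9 families. The AKT and RabGAP bars of Lysfree look like those of Undifferentiated, while the PI3K regulatory bars of Lysfree look like those of Differentiated.

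Genes around the members were counted from 7 hand-written lists, each to be read beside the share of all genes at 1 CPM or more that were higher and lower, 38.6% and 39% in Differentiated vs Undifferentiated, 32.2% and 28.1% in Lysfree vs Undifferentiated and 34.6% and 30.4% in Lysfree vs Differentiated. The lists were not limited by CPM and hold some genes with few reads, so their counts and these shares cover unlike sets of genes. Over all genes tested, the shares given above were lower. No list was tested against these shares. Of 30 genes of the GLUT4 vesicle and its traffic, 12 rose and 14 fell in Differentiated vs Undifferentiated, 8 and 11 in Lysfree vs Undifferentiated, and 7 and 14 in Lysfree vs Differentiated (median log2 fold changes of -0.02, -0.13 and -0.21). Slc2a4, GLUT4 itself, had 9 to 31 counts in Undifferentiated, 575 to 735 in Differentiated and 0 or 1 in Lysfree. It was thus at least 215-fold lower in Lysfree than in Differentiated, computed against 3 counts per library. Sort1, the vesicle sorting receptor sortilin, was at 3.79, 24.8 and 0.858 FPKM in Undifferentiated, Differentiated and Lysfree, and fell in Lysfree vs Undifferentiated (-2.10 ± 0.147, adjusted p = 1.40e-13). A list of AKT substrates and genes further along the route, all outside the members, held 14 genes. Of them, 6 rose and 7 fell in Differentiated vs Undifferentiated, 7 and 3 in Lysfree vs Undifferentiated, and 6 and 5 in Lysfree vs Differentiated (median log2 fold changes of -0.07, 0.24 and 0.17). Gys1, muscle-type glycogen synthase, is reached through GSK3 and not by AKT directly, and was at 18.2, 128 and 44.9 FPKM. Pde3b, the phosphodiesterase through which insulin restrains lipolysis, was at 0.597, 3.40 and 1.49 FPKM. For both, Lysfree lay between the other groups.

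Of 27 other adaptors and feedback genes tested, 5 rose and 10 fell in Differentiated vs Undifferentiated, 10 and 5 in Lysfree vs Undifferentiated, and 12 and 3 in Lysfree vs Differentiated (median log2 fold changes of -0.09, 0.17 and 0.35). Socs2, a suppressor of cytokine signalling, was at 1.196, 1.197 and 5.22 FPKM and rose in Lysfree against both other groups (2.17 ± 0.128, adjusted p = 1.77e-15, against Undifferentiated). Of 19 other phosphoinositide enzymes, 4 rose and 7 fell in Differentiated vs Undifferentiated, 5 and 6 in Lysfree vs Undifferentiated, and 7 and 2 in Lysfree vs Differentiated (median log2 fold changes of -0.15, -0.11 and 0.34). Pik3ip1, an inhibitor of PI3K, was at 10.3, 1.43 and 1.72 FPKM and fell in both treated groups against Undifferentiated. Mtm1, which encodes myotubularin, a phosphatase of phosphoinositides, was at 1.54, 4.42 and 8.94 FPKM and rose in both treated groups. Of 20 other AGC kinases and AKT partners tested, 7 rose and 8 fell in Differentiated vs Undifferentiated, 6 and 6 in Lysfree vs Undifferentiated, and 6 and 7 in Lysfree vs Differentiated (median log2 fold changes of -0.03, 0.11 and -0.02). Of 18 genes of the Ras and ERK arm, 9 rose and 5 fell in Differentiated vs Undifferentiated, 12 and 4 in Lysfree vs Undifferentiated, and 8 and 4 in Lysfree vs Differentiated (median log2 fold changes of 0.12, 0.46 and 0.18). Rps6ka1, a kinase downstream of ERK, was at 4.68, 9.14 and 1.71 FPKM. Of the FOXO target genes tested, 24 in both comparisons with Differentiated and 23 in the other, 9 rose and 12 fell in Differentiated vs Undifferentiated, 5 and 10 in Lysfree vs Undifferentiated, and 9 and 8 in Lysfree vs Differentiated (median log2 fold changes of -0.37, -0.57 and 0.05). Among them Pnpla2, adipose triglyceride lipase, was at 24.7, 474 and 27.9 FPKM, and Gadd45a, a stress gene, at 22.1, 30.4 and 74.6 FPKM.

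Of the 33 members, 5 overlap another protein-coding gene in GENCODE vM21, Irs1, Sos1, Inppl1 and Rhoq on the other strand and Pik3r3 on its own. Reads of overlaps on opposite strands cannot be told apart without strand, and the strand setting is not given in the sources used here. For Pik3r3, strand would not separate such reads. With genes of every type counted, 25 of the 33 members overlap another gene.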

How the data were processed

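Poly A RNA of 9 libraries of 3T3-L1 cells, 3 in each group, was analysed, and groups were taken from the sample labels. The authors mapped reads to mm10 with HISAT2 2.0.5 and counted them with featureCounts 1.5.0-p3, per the labels, and deposited counts per gene, not normalized, and FPKM for the same genes. The strand setting and the annotation release are not given in the sources used here. Total counts ranged from 15880144 to 21806693, and all 9 columns of each table matched 1 sample.

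Members and gene lists were chosen with earlier results of these data known. The deposited counts were tested with edgeR 4.0.16 (quasi-likelihood F test, TMM) in R 4.3.3 over genes that had at least 1 count somewhere in the 6 libraries compared, with Benjamini-Hochberg adjustment, and the steps were tested on simulated data. The SE is the log2 fold change divided by the square root of F. For the test, edgeR draws the spread of each gene towards a trend over all genes, with a weight called the prior degrees of freedom. That weight was infinite in Differentiated vs Undifferentiated, so every gene there took the trend alone. It was 28.0 in Lysfree vs Undifferentiated and 15.9 in Lysfree vs Differentiated. The sizes of p values should therefore not be compared between comparisons. The 95% intervals, also those in the figure, are normal approximations from the SE and are somewhat narrow with so few libraries. For Grb14 in Lysfree vs Undifferentiated, the interval leaves out 0 although the unadjusted p of the edgeR test was 0.0531. A gene at 3 counts or fewer in every library of a group was at the floor. With 3 libraries against 3, an exact permutation test cannot go below 0.1. Values in each library are given for members called at least 2-fold in any comparison and for Insr, Irs1, Irs2, Akt1 and Akt2, and group means for other members and, from the other lists, for up to 3 genes a comparison with the largest such change and a mean of at least 1 CPM. A gene that this rule names is not reported here. Alternatives were DESeq2 1.42.0, RLE factors, library sizes alone, filterByExpr, all 9 libraries in a single fit, a replicate block, limma 3.58.1 on log2(FPKM + 1), on log2(FPKM + 0.1) and on log2(FPKM + 1) at a mean FPKM of at least 0.5, shares from CPM, and leaving out each library.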

Additional observations from a re-analysis of the deposited data

How the results depend on the processing

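Of the called members, 24 of 26 in Differentiated vs Undifferentiated, 14 of 20 in Lysfree vs Undifferentiated and 16 of 25 in Lysfree vs Differentiated kept the call in all 15 alternatives, as did all 12, 2 and 7 members called at least 2-fold. On log2(FPKM + 1), with or without the filter at a mean of 0.5 FPKM, members at least 2-fold higher and lower in Differentiated vs Undifferentiated numbered 4 and 2 in place of 7 and 5. The pseudocount shrinks low genes by construction. On log2(FPKM + 1), members higher in Lysfree vs Differentiated at any fold numbered 7 in place of 12. Members at least 2-fold lower in Lysfree vs Undifferentiated numbered 3 in place of 1 with DESeq2, RLE factors, filterByExpr or log2(FPKM + 0.1). The added genes were Pik3r2 and Foxo4, at -0.99 and -0.98 in the main fit and down to -1.06 and -1.13 over all alternatives. Leaving out single libraries gave 1 to 3 members higher and 1 to 3 lower by at least 2-fold in Lysfree vs Undifferentiated. These 2-fold counts changed without Undifferentiated 1, Lysfree 2 or Lysfree 3. The count lower at any fold there, 6 in the main fit, was 4, 5 and 4 without Undifferentiated 1, 2 and 3. It was 10, 5 and 6 without Lysfree 1, 2 and 3. Same-numbered libraries deviated together with correlations of -0.0842 to 0.115, and not every library correlated best with its own number. No label makes the number a shared batch, and whether same-numbered libraries shared 1 cannot be told from these values. With the replicate block, members at least 2-fold lower in Lysfree vs Undifferentiated numbered 2 in place of 1, and the only member call lost was Pik3r2 in Lysfree vs Differentiated.

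Signs turned only for members not called. Over the fits that leave out a library, log2 fold changes in Differentiated vs Undifferentiated ran from -0.0186 to 0.201 for Irs1, -0.118 to 0.0619 for Sos1, -0.147 to 0.0239 for Sos2 and -1.45 to 1.34 for Ptprf. In Lysfree vs Undifferentiated they ran from -2.43 to 0.367 for Ptprf, -0.0693 to 0.05004 for Akt1, -0.00437 to 0.0980 for Akt2, -0.00424 to 0.0721 for Phlpp1, -0.0992 to 0.201 for Foxo1 and -0.248 to 0.0181 for Gsk3a, and in Lysfree vs Differentiated from -0.245 to 0.0174 for Pik3cb. In Lysfree vs Undifferentiated, library sizes alone gave 0.0152 for Akt1, and Phlpp1 came to -0.00229 with filterByExpr, -0.0109 on log2(FPKM + 1) with and without the filter and -0.0123 on log2(FPKM + 0.1). For shares, leaving out single libraries moved the difference of Differentiated minus Undifferentiated in percentage points from -1.88 to 1.71 for Sos1, from -6.76 to -1.73 for Gsk3a and from -4.65 to -3.01 for Pik3ca. The members with the fewest counts in any library were Ptprf, Pik3cd and Pik3cb, with lowest counts of 0, 34 and 73.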
